A study of Homo sapiens with 6 samples.

Results

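The genes described are 10 chemokine and chemokine receptor genes that epithelial tumour cells can express: CXCL1, CXCL2, CXCL3, CXCL8, CXCL16, CX3CL1, CCL20, CCL28, CXCR4 and ACKR3. They were chosen by name, with earlier results of these data known, and each had 1 row among the 60835 gene names of the deposited table. All RNA came from cultured SW620 cells, a line derived from a human colon cancer. There were 3 libraries from cells that the labels give as DNM1 knockdown, stably made (shDNM1, batch_B), and 3 from cells with a control vector, given as WT (shControl, batch_A). Cells of both sets grew in high-glucose DMEM with serum, and the number of hairpins and whether the lines are clones are not given in the labels. Batch and vector coincide and cannot be told apart. No label says that libraries of a set came from separate cultures, so each p-value is set against a spread among libraries that could be technical.

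Chemokines are small secreted proteins that direct cell migration through G protein-coupled receptors. CXCL1, CXCL2, CXCL3 and CXCL8 share the receptor CXCR2 and draw neutrophils, and their genes lie in a cluster on chromosome 4 that NF-kappaB can switch on in epithelium. CXCL16 and CX3CL1 are made as membrane-anchored proteins that the proteases ADAM10 and ADAM17 release. CCL20 attracts CCR6-bearing lymphocytes and dendritic cells, and CCL28 is a mucosal chemokine that binds CCR10 and CCR3. CXCR4 is the signalling receptor of CXCL12 and is widely studied in metastasis, while ACKR3 takes up CXCL12 without G protein signalling.

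Library totals were 12844534 to 13537519 counts. In the libraries labelled shDNM1 the target was not clearly lower: DNM1 had 126, 97.8 and 126 CPM in shDNM1 replicates 1, 2 and 3, against 127, 127 and 133 CPM in shControl (edgeR quasi-likelihood test, adjusted p = 0.189). CPM here is the read count scaled to the TMM-adjusted library size. DNM1 overlaps CIZ1 on the other strand, which had 584, 609 and 749 counts in shDNM1 and 1120, 1250 and 1185 counts in shControl, and whether counting used strand is not given. Directions below are therefore those of the libraries labelled shDNM1, whatever their DNM1 level. Without shDNM1 replicate 1 the DNM1 difference passed, with a log2 fold change of -0.20 (edgeR adjusted p = 0.0399). Without shDNM1 replicate 2 the DNM1 log2 fold change was -0.037 (edgeR adjusted p = 0.718), so the lower mean rested mainly on that library. Of 12 colon epithelial markers, 8 had at least 10 counts in every library and CDX1 was at 0 in all 6, and the list summed to 11970 to 12830 TPM in shDNM1 and 10620 to 11330 TPM in shControl. Most of this sum was KRT8, KRT18 and KRT19, with means of 7091, 2289 and 2078 TPM in shDNM1 and 6148, 1943 and 1744 TPM in shControl. It therefore says little about the other markers of the list. CDX2, an intestinal transcription factor gene, was 2.47-fold higher (edgeR adjusted p = 1.66e-06). The keratin genes KRT19, KRT18 and KRT8 had log2 fold changes of 0.31 (SE 0.072), 0.30 (SE 0.071) and 0.26 (SE 0.064) and were called, KRT8 not with limma on TPM. KRT8 overlaps KRT18 on the other strand, with 496401 counts against 115802 over the 6 libraries, so the calls of KRT18 and KRT8 may share reads. EPCAM, named after its values were seen, fell (log2 fold change -0.17, SE 0.058, edgeR adjusted p = 0.0288). Of the 9 tested markers of this list, 5 rose and 1 fell, against 15.6% higher and 16.2% lower among all genes tested. TPM are the authors' values per transcript length. Of 13 leukocyte markers, 4 (CD3E, CD2, MS4A1 and FCGR3A) were at 0 in all libraries, and the list summed to 7.70 to 10.4 TPM in shDNM1 and 11.7 to 12.6 TPM in shControl. Of its 2 tested genes, LYZ, the lysozyme gene, fell, with 2.57 to 4.08 TPM in shDNM1 and 6.84 to 8.74 TPM in shControl (edgeR adjusted p = 0.00256). CSF1R, a macrophage growth factor receptor gene, rose, with 2.28 to 3.44 TPM in shDNM1 and 0.412 to 1.17 TPM in shControl (edgeR adjusted p = 0.000367), and a more abundant pseudogene overlaps it on the other strand. With 7 counts in shControl replicate 3, CSF1R passed the low-count filter through its shDNM1 values, the set in which it was higher. Without LYZ the list summed to 4.38 to 6.28 TPM in shDNM1 and 3.85 to 5.05 TPM in shControl, and the sets overlapped. Of 11 endothelial and fibroblast markers, KDR and COL3A1 were at 0 throughout, and the list summed to 44.2 to 64.2 TPM in shDNM1 and 37.8 to 44.7 TPM in shControl. Most of this sum was LUM, with 28.7 to 46.1 TPM in shDNM1 and 23.1 to 28.9 TPM in shControl. PDGFRB, a stromal growth factor receptor gene, LUM, which encodes lumican, and VWF, von Willebrand factor, had log2 fold changes of 1.41 (SE 0.27), 0.47 (SE 0.14) and 0.49 (SE 0.18) and were called, and COL1A1, a collagen gene, was not (0.10, SE 0.15). The call of LUM was lost under 4 of 17 other settings, without shDNM1 replicate 1 or shControl replicate 2 among them, and that of VWF under 11, without shDNM1 replicate 1 or 3 or shControl replicate 1 or 2 among them.

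The promoters of the CXCR2 ligand genes are shown first, because these genes share the core letters of a regulatory element and yet differed in how their mRNA moved. Each window is the 150 bases before the RefSeq transcription start (GRCh38.p14), read 5′ to 3′ on the gene's strand. Capitals mark the letters GGAATTTCC, the core of a kappaB element, and in CXCL8 also TGACTCA, the letters of an AP-1 element. CXCL6, another CXCR2 ligand of the cluster, is added for comparison.
CXCL1 (chr4:73869243-73869392, plus strand): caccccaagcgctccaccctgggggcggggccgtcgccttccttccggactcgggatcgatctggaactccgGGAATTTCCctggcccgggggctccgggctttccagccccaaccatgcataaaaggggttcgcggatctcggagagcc
CXCL2 (chr4:74099196-74099345, minus strand): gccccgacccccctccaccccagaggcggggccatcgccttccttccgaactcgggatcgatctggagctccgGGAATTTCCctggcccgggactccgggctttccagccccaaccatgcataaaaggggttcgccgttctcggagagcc
CXCL3 (chr4:74038690-74038839, minus strand): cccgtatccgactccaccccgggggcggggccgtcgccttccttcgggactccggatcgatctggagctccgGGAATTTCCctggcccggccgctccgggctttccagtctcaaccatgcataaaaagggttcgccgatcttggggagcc
CXCL6 (chr4:73836528-73836677, plus strand): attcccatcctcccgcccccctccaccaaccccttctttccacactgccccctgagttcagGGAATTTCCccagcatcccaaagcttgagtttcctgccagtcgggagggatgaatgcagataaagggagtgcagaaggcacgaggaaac
CXCL8 (chr4:73740419-73740568, plus strand): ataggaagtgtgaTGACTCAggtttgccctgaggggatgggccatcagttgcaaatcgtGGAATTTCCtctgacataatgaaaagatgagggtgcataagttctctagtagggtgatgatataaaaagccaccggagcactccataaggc

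In these windows CXCL1 and CXCL3 were identical at 88.1% of aligned positions, CXCL1 and CXCL2 at 88.7%, and CXCL2 and CXCL3 at 86.1%, against 43.6% to 45.1% for each of them with CXCL8. The longest run shared by CXCL1, CXCL2 and CXCL3 had 23 bases, ctccgGGAATTTCCctggcccgg, and holds the element. The first G of GGAATTTCC stood 78 bases before the RefSeq start in CXCL1 and CXCL3, 77 in CXCL2, 89 in CXCL6 and 91 in CXCL8. These distances depend on the start chosen. In the deposited coordinates CXCL3, CXCL6 and CXCL8 start inside these windows, at 74038807, 73836640 and 73740519, and the CXCL3 element lies within the counted gene. Searched on both strands in the 250 bases before each start, GGAATTTCC occurred in 0.413% of 35116 RefSeq promoters. A kappaB consensus that must begin with GGG but is looser after it occurred in 9.96% of promoters. It was present in CXCL1, CXCL2, CXCL3 and CXCL6, where it overlaps GGAATTTCC, and in CCL20. CXCL8, though it holds GGAATTTCC, had no match to this consensus. TGACTCA occurred in 4.20% of promoters and, of the genes listed, in CXCL8. A match is a description of letters and does not show a bound site. In all, 7 of the 10 genes had a promoter entry; CXCL16, CX3CL1 and ACKR3 had none.

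On the TPM scale CXCL8 was the most abundant of the 10 mRNAs, with a mean of 41.5 ± 4.20 TPM in shDNM1 and 54.8 ± 2.38 TPM in shControl (SD, n = 3 each). In shControl the order of mean levels was then CXCL1, CCL28, CCL20, CXCL3, CXCL16, CX3CL1, CXCL2, CXCR4 and ACKR3. The ranges of CCL28 and CCL20 overlapped there, as did those of CX3CL1 and CXCL2, and those of CXCL2 and CXCR4. In shDNM1 CXCL3 took the place after CXCL1, above CCL20 and CCL28, whose ranges again overlapped. ACKR3 had 0 counts in all 6 libraries, which allows at most 0.222 to 0.234 CPM of the library total (3 counts of its total, counting error only).

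**Figure D1:**
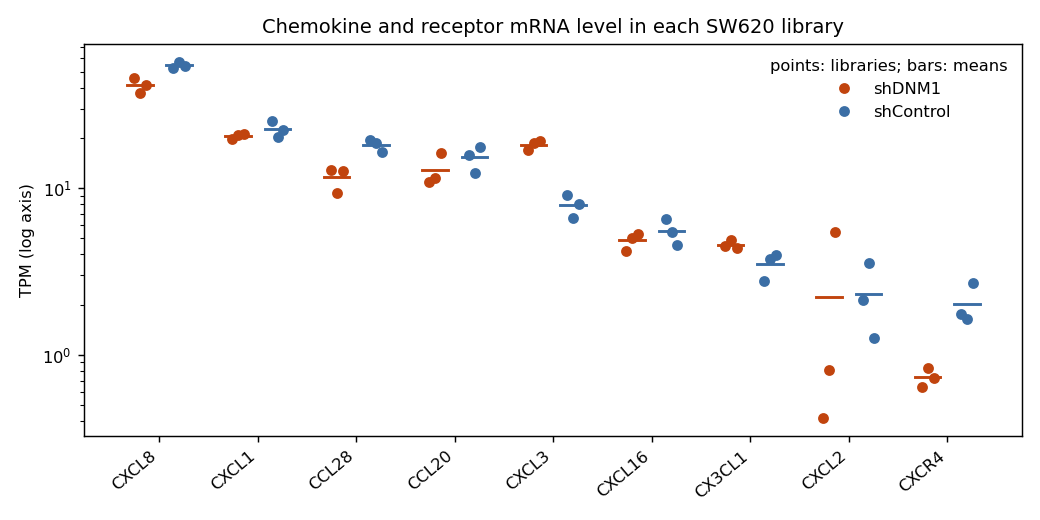
TPM (log axis) of the 9 detected genes in each library, with shDNM1 left of shControl for each gene, points for single libraries and bars for means of 3. CXCL3 stands at 17.0 to 19.1 TPM in shDNM1 and 6.62 to 9.09 TPM in shControl, whereas CXCL1 overlaps between the sets.

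Across the 9 genes that passed the low-count filter, 1 rose (CXCL3), 3 fell (CXCL8, CCL28 and CXCR4) and 5 did not pass the test. Of all 16744 genes tested, 31.9% were called, 15.6% higher and 16.2% lower. Of those calls 49.0% were higher, against 38.8% with limma on log2(TPM + 1). The libraries of the 2 sets did not overlap for 5 of the 9 genes and for 44.3% of all genes tested. Calls were this common across the whole table, so the count of 4 among 9 is not a result about chemokines. CXCL3, CCL28 and CXCR4 were called with a difference of at least 1.5-fold, as were 11.7% of the genes tested, and CXCL3 and CXCR4 with at least 2-fold, as were 4.81%. The median log2 fold change was -0.12 over the 9 genes and -0.01 over all genes tested.

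**Figure D2:**
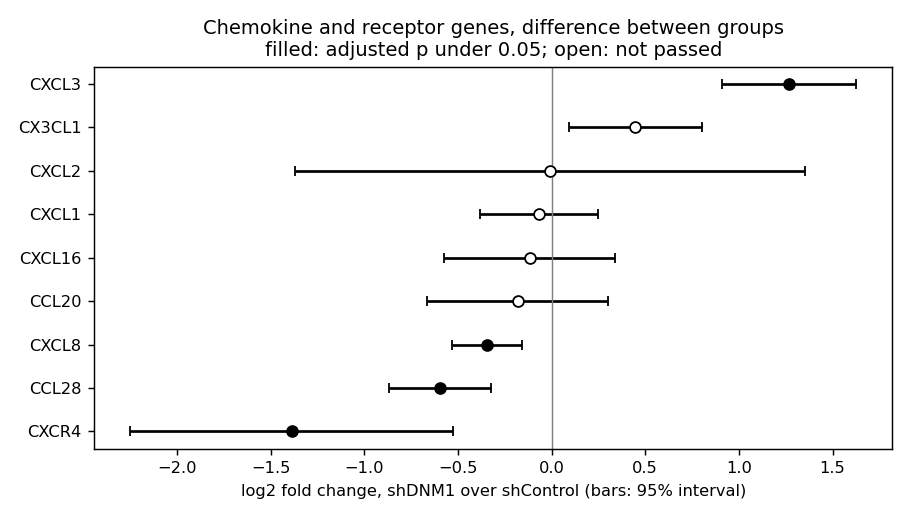
Log2 fold change of shDNM1 over shControl with its 95% interval for the 9 tested genes, filled where the edgeR adjusted p was under 0.05. CXCL3 lies highest at 1.27 and CXCR4 lowest at -1.39, and the widest interval is that of CXCL2.

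Among the CXCR2 ligands, CXCL3 rose and CXCL8 fell, while CXCL1 did not pass the test. CXCL3 (ENSG00000163734, GRCh38 chromosome 4, 74036589 to 74038807, minus strand) had 120, 136 and 139 counts in shDNM1 replicates 1 to 3, against 63, 49 and 56 counts in shControl. In TPM these were 17.0, 18.7 and 19.1 in shDNM1 and 9.09, 6.62 and 8.01 in shControl. Every shDNM1 library lay above every shControl library. The level was 2.41-fold higher (log2 fold change 1.27, SE 0.17, edgeR adjusted p = 1.67e-05), and the size of that difference exceeded that of 97.2% of the genes tested.

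CXCL8, which encodes interleukin-8 (ENSG00000169429, chromosome 4, 73740519 to 73743716, plus strand), had 45.7, 37.3 and 41.6 TPM in shDNM1, against 52.6, 57.3 and 54.4 TPM in shControl. The sets did not overlap, but the gap between the closest libraries was small. The level in shDNM1 was 0.788 of that in shControl (log2 fold change -0.34, SE 0.089, edgeR adjusted p = 0.00623). The interval ran from 0.692 to 0.897 of the shControl level.

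CXCL1 (ENSG00000163739, chromosome 4, 73869393 to 73871308, plus strand), a neutrophil attractant first named for growth-stimulating activity, had 19.8, 20.9 and 21.1 TPM in shDNM1 and 25.2, 20.2 and 22.2 TPM in shControl. The libraries overlapped, and the highest value was that of shControl replicate 1. The ratio was 0.954 with an interval of 0.767 to 1.19 (edgeR adjusted p = 0.771), which contains no change and excludes a rise of the size seen for CXCL3. CXCL3 per CXCL1, a ratio of TPM within a library, was 0.859, 0.893 and 0.904 in shDNM1 and 0.361, 0.328 and 0.361 in shControl.

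CXCL2 (ENSG00000081041, chromosome 4, 74097040 to 74099196, minus strand) was scarce and uneven. It had 2, 4 and 27 counts in shDNM1 and 10, 18 and 6 counts in shControl, so that shDNM1 replicate 3 alone held the highest value and shDNM1 replicates 1 and 2 the lowest. No difference was detectable at this depth (log2 fold change -0.01, interval -1.37 to 1.35, edgeR adjusted p = 0.994). Without shDNM1 replicate 1 or 2 the log2 fold change was 0.48 or 0.37, and it did not pass either time. Without shDNM1 replicate 3, which held 27 of the shDNM1 counts, or without shControl replicate 2, CXCL2 fell below the low-count filter and was not tested. In the absence of shDNM1 replicate 3, 2 and 4 counts in shDNM1 stood below the 10, 18 and 6 counts in shControl.

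These genes are close paralogs, and reads shared between them could have been split by the authors' counting. Of the 50-base words in the longest coding transcript of CXCL3, 5.26% also occurred in CXCL1 or CXCL2 transcripts, as did 5.73% of those of CXCL1 and 9.24% of those of CXCL2 with the other two genes. No 100-base word was shared. With the counts of CXCL1, CXCL2 and CXCL3 summed to 1 row, a check chosen after the data were seen, the sum was 222, 249 and 276 counts in shDNM1 and 198, 174 and 173 counts in shControl. That sum was 1.41-fold higher (log2 fold change 0.49, SE 0.12, edgeR adjusted p = 0.00446).

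Without CXCL6, the summed mRNA of the 4 ligands stayed within a narrow range, at 82.9, 77.7 and 87.2 TPM in shDNM1 and 89.0, 87.7 and 85.9 TPM in shControl. Its make-up differed. CXCL3 contributed 20.5%, 24.0% and 21.9% of it in shDNM1, against 10.2%, 7.54% and 9.32% in shControl. CXCL8 contributed 55.1%, 48.0% and 47.7% in shDNM1, against 59.1%, 65.4% and 63.4% in shControl. The share of CXCL1 overlapped between the sets, at 23.9% to 26.9% in shDNM1 and 23.0% to 28.3% in shControl. These shares follow from the levels above and add no test. CXCL6, left out of this sum, had 16.5, 11.6 and 16.1 TPM in shDNM1, against 20.2, 24.4 and 24.6 TPM in shControl. The narrow range is therefore that of these 4 genes alone, and not of all CXCR2 ligands.

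**Figure D3:**
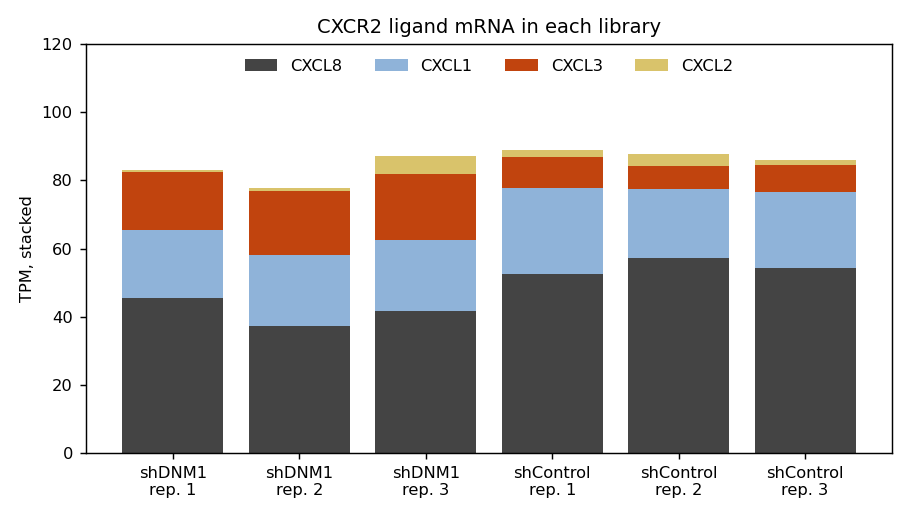
Stacked TPM of CXCL8, CXCL1, CXCL3 and CXCL2 in each library, shDNM1 on the left and shControl on the right. The totals, which leave out CXCL6, lie between 77.7 and 89.0 TPM, and the CXCL3 segment is taller in each shDNM1 library.

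The neighbours on chromosome 4 did not move as a block. Within 500000 bases of the span from CXCL8 to CXCL2 (73740519 to 74099196), the table listed 33 genes, of which 10 were tested, 3 rising and 3 falling. These counts include CXCL1, CXCL2, CXCL3 and CXCL8 themselves, with CXCL3 among the rising and CXCL8 among the falling genes. Among all genes tested, 15.6% were called higher and 16.2% lower. CXCL6, a CXCR2 ligand gene between CXCL8 and CXCL1, fell to 16.5, 11.6 and 16.1 TPM in shDNM1, against 20.2, 24.4 and 24.6 TPM in shControl (log2 fold change -0.59, SE 0.16, edgeR adjusted p = 0.00732). CXCL5, PPBP, PF4 and PF4V1, the other CXC genes of the cluster, were at 0 in all 6 libraries.

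Beyond the chemokines of the cluster, RASSF6, a RAS-association domain gene, fell to 0.676 of its shControl level (edgeR adjusted p = 0.000123). EREG, which encodes the EGFR ligand epiregulin, was 2.42-fold higher (edgeR adjusted p = 1.20e-08), and ANKRD17, an ankyrin repeat gene, was 1.19-fold higher (edgeR adjusted p = 0.00327). AREG, the gene of the EGFR ligand amphiregulin, and MTHFD2L, a mitochondrial folate enzyme gene, had log2 fold changes of 0.28 (SE 0.12) and -0.33 (SE 0.14) and did not pass. Without shDNM1 replicate 1, MTHFD2L did (edgeR adjusted p = 0.0151).

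**Figure D4:**
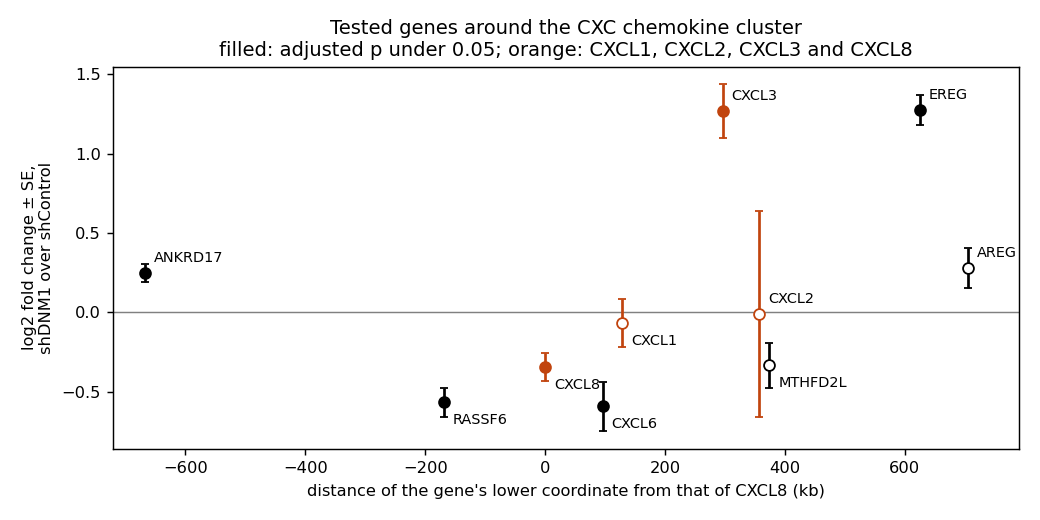
Log2 fold change (± SE) of the 10 tested genes around the cluster against the distance of each gene's lower coordinate from that of CXCL8, in kb, filled where the edgeR adjusted p was under 0.05. CXCL3 and EREG lie at 1.27, with CXCL2 near 0 between them, and CXCL8, CXCL6 and RASSF6 lie below 0.

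Of the membrane-anchored chemokines, neither passed the test, although CX3CL1 came close. CX3CL1, which encodes fractalkine (ENSG00000006210, chromosome 16, 57372477 to 57385044, plus strand), had 112, 125 and 113 counts in shDNM1, against 68, 98 and 98 counts in shControl. In TPM these were 4.50, 4.86 and 4.39 in shDNM1 and 2.78, 3.75 and 3.97 in shControl, and the sets did not overlap. The log2 fold change was 0.45 (SE 0.17, edgeR adjusted p = 0.0524). Without shDNM1 replicate 1 it passed (adjusted p = 0.0465, edgeR), so that 2 genes rose, and over 17 other settings its adjusted p ranged from 0.0279 to 0.228.

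CXCL16 (ENSG00000161921, chromosome 17, 4733533 to 4739928, minus strand), a ligand of CXCR6 that also acts as a scavenger receptor, had 4.21, 5.04 and 5.33 TPM in shDNM1 and 6.52, 5.43 and 4.54 TPM in shControl. The libraries overlapped, and the ratio was 0.922 with an interval of 0.671 to 1.27 (edgeR adjusted p = 0.725). The ends of CXCL16 overlap ZMYND15 and MED11 on the other strand. MED11 had 42, 51 and 45 counts in shDNM1 and 32, 53 and 51 in shControl, and since it is not given whether counting used strand, a share of these reads could belong to either gene.

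Of 6 listed genes, ADAM10, ADAM17, RHBDF1 and RHBDF2 act in the release of these membrane chemokines, TIMP3 inhibits it and DPP4 is not a sheddase. All but DPP4 were tested, 5 genes, with RHBDF1 and ADAM17 rising and ADAM10 and the inhibitor TIMP3 falling, against 31.9% called among all genes tested. RHBDF1, an inactive rhomboid that supports ADAM17, was at 98.9 ± 9.54 CPM in shDNM1 and 52.4 ± 1.01 CPM in shControl (SD, n = 3 each, edgeR adjusted p = 6.89e-08). TIMP3, an inhibitor of ADAM17, fell to 0.412 of its shControl level (adjusted p = 2.54e-06, edgeR). ADAM10, a main sheddase of CX3CL1 and CXCL16 at rest, fell to 0.807 (adjusted p = 0.000759, edgeR). ADAM17, the sheddase recruited on stimulation, was 1.17-fold higher (adjusted p = 0.0361, edgeR), a call lost under 8 of 17 other settings. Among them were leaving out shDNM1 replicate 3 or shControl replicate 1, 2 or 3, each of which left 1 gene of the list higher. These are mRNA levels, and shedding was not measured.

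Of the CC chemokines, CCL28 fell and CCL20 did not pass. CCL28 (ENSG00000151882, chromosome 5, 43376645 to 43412391, minus strand) had 172, 130 and 175 counts in shDNM1, against 258, 262 and 220 counts in shControl. In TPM these were 12.8, 9.37 and 12.6 in shDNM1 and 19.6, 18.6 and 16.5 in shControl. All shDNM1 libraries lay below all shControl libraries, and shDNM1 replicate 2 was lowest. The level was 0.661 of that in shControl (log2 fold change -0.60, SE 0.13, edgeR adjusted p = 0.0016). It was called under each of the 17 other settings, with adjusted p from 6.61e-05 to 0.0132.

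CCL20 (ENSG00000115009, chromosome 2, 227805739 to 227817564, plus strand) had 10.8, 11.5 and 16.4 TPM in shDNM1 and 15.8, 12.4 and 17.6 TPM in shControl. Its libraries overlapped, with shDNM1 replicate 3 among the shControl values. The ratio was 0.882 with an interval of 0.631 to 1.23 (edgeR adjusted p = 0.593).

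Of the receptors, CXCR4 fell, at a low level in both sets, and ACKR3 was not detected. CXCR4 (ENSG00000121966, chromosome 2, 136114349 to 136119177, minus strand) had 6, 8 and 7 counts in shDNM1, against 16, 16 and 25 counts in shControl. In TPM these were 0.644, 0.830 and 0.726 in shDNM1 and 1.75, 1.63 and 2.70 in shControl. The sets did not overlap, and shControl replicate 3 stood above the others. The level in shDNM1 was 0.382 of that in shControl, with an interval of 0.210 to 0.694 (log2 fold change -1.39, SE 0.41, edgeR adjusted p = 0.0143). CXCR4 passed the low-count filter through its shControl values, so its presence among the tested genes depends on the set in which it was higher. The call ended without shControl replicate 3 (edgeR adjusted p = 0.112) and with DESeq2 (adjusted p = 0.0685). In these bulk libraries fewer CXCR4-expressing cells and less CXCR4 mRNA per cell cannot be told apart. PTPRC, the pan-leukocyte marker CD45, had 2 counts in shDNM1 replicate 1 and 0 in the other 5 libraries.

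The partners of these ligands and receptors were undetected or at low counts in the same cells. Of 10 partner genes, CXCR1, CXCR2, CX3CR1, ACKR1 and CXCL12 had 0 counts in all 6 libraries, and CXCR6 alone was tested. CXCR6, the CXCL16 receptor, had 31, 15 and 27 counts in shDNM1 and 14, 18 and 19 counts in shControl, and did not pass (log2 fold change 0.55, SE 0.34, edgeR adjusted p = 0.242). CCR6, the CCL20 receptor, had 0 counts in every shDNM1 library and 3 counts in shControl replicate 3 alone. CCR10 had 0 to 7 counts in shDNM1 and 0 to 4 in shControl, and CCR3 had 2 to 3 counts in shDNM1 and 4 to 5 in shControl. MIF, which also binds CXCR2 and CXCR4, was listed at 0 to 18 counts in shDNM1 and 2 to 10 in shControl, and its value is uncertain because it overlaps an antisense gene. CXCR6 and CCR10 are uncertain likewise, as FYCO1 and CNTNAP1, on the other strand, overlap them with 3886 counts against 124 and 217 against 15 over the 6 libraries.

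Other chemokine genes were sparse. These lists hold some of the partners named above. Of 38 other ligand genes, 23 had 0 counts in all libraries and 4 were tested. Of these 4, CXCL6, XCL1 and CCL24 fell, none rose and CCL26 did not pass (edgeR adjusted p = 0.105), against 15.6% higher and 16.2% lower among all genes tested. XCL1, a lymphocyte attractant with a near-identical paralog, XCL2, had 11, 5 and 9 counts in shDNM1 and 15, 31 and 33 counts in shControl (edgeR adjusted p = 0.00576). XCL2 did not reach the filter and showed no such fall, with 12, 7 and 6 counts in shDNM1 and 5, 9 and 8 counts in shControl. How the counting split reads shared by XCL1 and XCL2 was not tested, so the fall of XCL1 is uncertain. CCL24, an eosinophil attractant, had 0, 6 and 3 counts in shDNM1 and 12, 15 and 28 counts in shControl (adjusted p = 0.00416, edgeR). XCL1 and CCL24 passed the low-count filter through their shControl values, so the direction of these calls depends on the set in which they were higher. Of 21 other receptor genes, 8 had 0 counts throughout and 2 were tested. ACKR4, a scavenger of CCL19 and CCL21, did not reach the filter, with 20, 11 and 10 counts in shDNM1 and 7, 7 and 4 counts in shControl. CCR7, the lymph node homing receptor, fell to 6.86, 5.81 and 6.53 TPM in shDNM1, against 13.1, 13.1 and 13.9 TPM in shControl (0.499 of the shControl level, edgeR adjusted p = 9.62e-05). On the TPM scale CCR7 lay above CXCR4 in every library. The leukocyte markers moved in both directions, LYZ lower and CSF1R higher, and their part in the values of CXCR4 and CCR7 was not tested.

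NF-kappaB factors and regulators, which act on chemokine transcription, were called in both directions. Of 24 such genes, 7 rose, 5 fell and 12 did not pass, against 15.6% higher and 16.2% lower among all genes tested, and their median log2 fold change was 0.17. NFKB2, the precursor of the p52 subunit, was at 107 ± 11.4 CPM in shDNM1 and 74.6 ± 4.21 CPM in shControl (SD, n = 3 each, edgeR adjusted p = 5.15e-05). TAB2, an adaptor of the TAK1 kinase, fell to 0.581 of its shControl level (adjusted p = 7.68e-08, edgeR). NFKBIZ, a nuclear co-regulator of inflammatory genes, fell to 0.493 and TRAF1, a TNF receptor adaptor, to 0.450 (adjusted p = 0.000378 and 0.000439, edgeR).

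RELA, a transactivating NF-kappaB subunit, was 1.25-fold higher and NFKB1, the p50 precursor, fell to 0.688 (edgeR adjusted p = 0.000683 and 0.00064). The feedback genes NFKBIA and TNFAIP3 had log2 fold changes of 0.20 (SE 0.099) and 0.03 (SE 0.13), neither of them past the threshold. These 4 genes were picked out with their values already known. The number of genes of the list that rose was 4 without shDNM1 replicate 3 or shControl replicate 2 or 3, 3 without shControl replicate 1, and 4 with limma on TPM.

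Of 20 inflammatory cytokine and receptor genes, 14 were tested, 4 rising and 4 falling where 15.6% and 16.2% of all genes did, with a median log2 fold change of 0.07. IL6ST, the shared receptor chain gp130, was at 30.6 ± 7.08 CPM in shDNM1 and 56.2 ± 7.57 CPM in shControl (SD, n = 3 each, edgeR adjusted p = 3.92e-05). IL18, a cytokine of the interleukin-1 family, fell to 0.296 and IL17RA, a chain of the interleukin-17 receptor that induces CXCL1 and CCL20 in epithelium, to 0.735 (adjusted p = 0.000103 and 0.00201, edgeR). IL6R was 1.64-fold higher (adjusted p = 0.00169, edgeR). Without shControl replicate 1, 2 genes of the list rose. IL6 was at 0 in all libraries.

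Of 29 genes that act downstream of chemokine receptors, 26 were tested, 5 rising and 8 falling where 15.6% and 16.2% of all genes did, with a median log2 fold change of -0.08. The beta-arrestins, which turn receptors off and carry ACKR3 signals, went opposite ways. ARRB1 was at 85.7 ± 0.704 CPM in shDNM1 and 55.3 ± 3.43 CPM in shControl (SD, n = 3 each, edgeR adjusted p = 2.12e-06). ARRB2, named after its values were seen, was at 21.4 ± 2.02 CPM in shDNM1 and 32.5 ± 0.051 CPM in shControl (SD, n = 3 each, edgeR adjusted p = 9.47e-05). GNAI2, an inhibitory G protein subunit through which chemokine receptors signal, fell to 0.674 of its shControl level. PREX1, a RAC activator, fell to 0.506, and RGS19, which shortens G protein signals, to 0.589 (adjusted p = 2.14e-06, 1.80e-06 and 1.73e-05 in that order, edgeR).

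**Figure D5:**
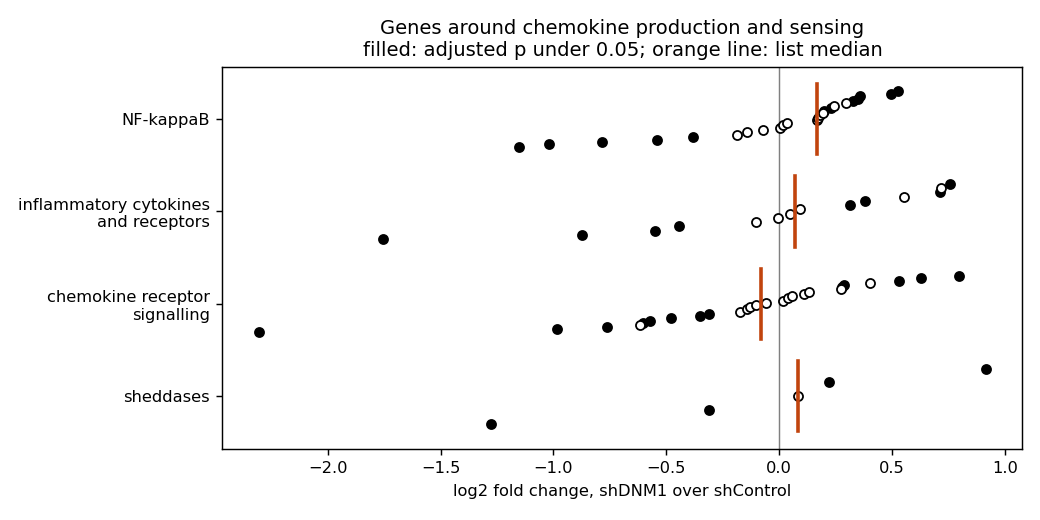
Log2 fold change of shDNM1 over shControl for the tested genes of 4 lists, 1 point a gene, filled where the edgeR adjusted p was under 0.05, with the list median as a line. Each list holds called genes on both sides of 0, and the medians lie between -0.08 and 0.17.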

How the data were processed

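RNA of 6 SW620 libraries was sequenced, per the labels' protocols with a SMARTER mRNA-seq kit. The deposited table gives whole-number read counts per gene, which the authors made on build GRCh38, as the submitters' processing notes state. The aligner, counter, annotation release and strand setting were not given in the sources used here. TPM were taken from the authors' second deposited table, handled as a score since repeated lines lift its column sums. Over unique names each column summed to 1000000. Each table had 62710 lines, and 2328 lines sharing 453 names with identical values were collapsed. No row lacked a gene name, and 0 per-sample columns were unused.

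Differences came from edgeR 4.0.16 (R 4.3.3), with filterByExpr at its defaults, TMM scaling and its quasi-likelihood test, two-sided. P-values were adjusted by Benjamini-Hochberg across all 16744 genes that passed the filter, at a threshold of 0.05. SE is the log2 fold change divided by the square root of F, and intervals are at 95%. The test was also run on counts simulated with the spread fitted to these libraries. That run cannot address the batch or whether the libraries are technical replicates. Alternatives were other scalings and filters, DESeq2 1.42.0, limma-voom and limma-trend (limma 3.58.1) on log2(TPM + 1) and log2(TPM + 0.1), a robust fit, the replicate number as a block, and each library left out. The chi-square per gene was 3.79 to 8.05 within shDNM1, 2.42 to 3.54 within shControl and 18.7 to 23.0 between them, so none was taken as deposited again. The members and lists were chosen with earlier results of these data known. Named besides the members were, per list, up to 4 tested genes with the smallest p, every call of lists with at most 5 calls, and genes chosen by position or marked as named later. Promoters came from RefSeq (GRCh38.p14) and transcripts from GENCODE.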

Additional observations from a re-analysis of the deposited data

How the results depend on the processing

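The calls of CXCL3, CXCL8 and CCL28 kept their direction and passed under all 17 other settings. CXCR4 lost its call with DESeq2 and without shControl replicate 3, leaving 2 genes lower, and over single left-out libraries 2 to 3 genes were lower and 1 to 2 higher. CX3CL1 passed, giving 2 genes higher, with RLE scaling, a CPM of at least 1 in 3 libraries, limma-voom, the robust fit and the replicate block. Estimates that did not pass changed sign for CXCL1 (0.017, range over left-out libraries -0.14 to 0.017) and CXCL16 (0.016, range -0.24 to 0.016) without shControl replicate 1. Those of CXCL2 did so with RLE scaling (0.0047), with DESeq2 (0.0011) and without shDNM1 replicate 1 (0.48) or 2 (0.37), with a range of -0.31 to 0.48 over the 4 left-out libraries that gave a value. Without shDNM1 replicate 3 or shControl replicate 2, and with a CPM of at least 1 in 3 libraries, CXCL2 was not tested. TNFAIP3 changed sign with library size alone (-0.00066) and limma on log2(TPM + 1) (-0.016) or log2(TPM + 0.1) (-0.017), with -0.083 to 0.14 over left-out libraries, and COL1A1 ran from -0.024 to 0.19. The causes were not tested.

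The DNM1 log2 fold change ran from -0.20 to -0.037 over left-out libraries. Genes higher numbered 3 to 7 in the NF-kappaB list, 2 to 4 in the cytokine list and 1 to 2 among sheddases over left-out libraries. With limma on log2(TPM + 1) or log2(TPM + 0.1) they were 4 for NF-kappaB and 1 for sheddases, and 1 for sheddases with upper quartile scaling or library size alone. Over all genes, limma on log2(TPM + 1) called 1801 higher and 2846 lower, against 2617 and 2720 in the main test.

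Same-numbered libraries were not treated as pairs in the main test. Their deviations correlated at 0.10, 0.06 and -0.03 for replicates 1, 2 and 3. Replicates 1 and 2 correlated best with their own number, and replicate 3 did not. Whether such libraries were paired was not tested, and these weak correlations do not settle it. With the replicate block 2964 genes were called higher and 3116 lower. Low counts limit CXCL2, CXCR4, CCL24 and XCL1, and genes at 0 counts gave no test.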
